A study of Mus musculus with 9 samples.

Results

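The genes for the glucocorticoid and mineralocorticoid receptors and for 8 of their classic targets were followed in cultured mouse retinal ganglion cells (RGCs). These 10 genes, out of 22322 in the expression table, were Nr3c1, Nr3c2, Tsc22d3, Fkbp5, Klf9, Sgk1, Zbtb16, Errfi1, Ddit4 and Dusp1. They were chosen by name with earlier results of these same libraries known, so their levels and fold changes are given as a description with no test. RNA was sequenced from 9 libraries, and each of the 3 groups had 3 replicates. One group was normal RGCs, another was aging RGCs, and the last was aging RGCs + USCs medium. All groups were wild type by their labels and came from purchased RGCs kept in high-glucose medium with serum. Aging RGCs had been exposed to D-galactose, a sugar used to bring on senescence-like changes. Aging RGCs + USCs medium were exposed to the same sugar and afterwards cultured in medium in which urine-derived stem cells (USCs) had grown, with those cells removed. The composition of that medium, including any steroid, was not measured in these libraries. Serum was part of the culture medium, and its steroid content was not measured either. Replicates were wells, so p-values measure only the spread between these samples, which may be technical. Aging against normal, and medium against aging, share the aging libraries, so the values of both comparisons are given side by side.

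Glucocorticoids enter the cell and bind the glucocorticoid receptor, which waits in the cytoplasm in a complex with the chaperone Hsp90 and its co-chaperones. The bound receptor moves to the nucleus, where it raises transcription from DNA elements made of a pair of inverted half-sites and represses many inflammatory genes by acting on other factors. The mineralocorticoid receptor binds aldosterone as well as glucocorticoids and can use the same elements. In the eye, glucocorticoids are known for effects on retinal glia, vessels and the outflow of aqueous humour, and several of their targets also answer to other stresses.

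The depth of the libraries was similar. Expected counts, which estimate the reads from each gene, summed to 22342288, 20062796 and 19814241 in normal RGCs. The totals were 18189616, 19188248 and 19556335 in aging RGCs, and 20362398, 21054326 and 20238824 in aging RGCs + USCs medium. Apart from the cell-type markers, levels between conditions are given as CPM, counts relative to library size, with TMM factors of 0.9562 to 1.034. Levels between genes, and most values of those markers, are given as FPKM, which divides by transcript length and has no TMM factor applied. In bulk RNA, fewer cells with a transcript and less RNA per cell cannot be told apart.

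The labelled cell type was checked against its markers. Of 12 RGC markers, Pou4f2, Pou4f3 and Atoh7, transcription factors that define these neurons, had 0 counts in all 9 libraries. Thy1, a surface marker of RGCs, had at most 1 count in a library, and Slc17a6, the glutamate transporter of RGCs, at most 4. Rbpms was the most abundant of the list at 21.9 to 33.1 FPKM. The summed FPKM of the list was 61.6, 61.9 and 63.2 in normal RGCs, 43.3, 44.5 and 46.6 in aging RGCs, and 44.2, 44.3 and 47.0 in aging RGCs + USCs medium. These sums cover opposite differences between members. Tubb3, a neuronal tubulin, had 2.44, 2.88 and 2.43 FPKM in normal RGCs, 1.71, 1.28 and 1.23 FPKM in aging RGCs, and 11.1, 11.4 and 10.4 FPKM in the medium. Nefl, a neurofilament subunit, had 17.6, 20.5 and 19.9 FPKM, then 11.01, 12.4 and 11.1 FPKM, then 4.55, 5.16 and 4.98 FPKM in the same groups. Both were DEGs for medium against aging, Tubb3 upregulated and Nefl downregulated. Isl1, a transcription factor of RGCs and other neurons, had 4.62 to 9.36 FPKM. Vim, Krt8 and Krt18, which encode intermediate filaments of mesenchymal and epithelial cells, were far higher, with Vim at 778 to 940 FPKM. Col3a1, a fibrillar collagen, had 46.3 to 103.6 FPKM. The other mesenchymal and epithelial markers were low, with Krt5 at 0 counts in all libraries, Krt14 at no more than 2 and Cdh1 at no more than 5. Epcam had 0.72 to 1.6 FPKM, Col1a1 1.12 to 2.98, Pdgfrb 0.16 to 1.04 and Col1a2 0.26 FPKM or less. The name RGCs is used below as in the labels, although most defining markers were absent or near 0.

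Short DNA windows around the annotated start sites of the 10 genes show where a receptor element could be read directly from sequence. The RefSeq table for GRCm38.p6 held windows of 250 bases before to 50 bases after the start for 8 of the genes, 16 windows in all, and the 2 others were Zbtb16 and Nr3c1. The full palindrome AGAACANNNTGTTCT, searched on both strands, was found in 1 of the 16 windows, at a start of Sgk1. Over all 32851 promoter windows of the table, 3 held it, or 0.00913%. The looser core GNACANNNTGTNC was found in that same window and in 0.475% of all windows. A half-site, AGAACA or TGTTCT, which is also part of the full palindrome, was found in 4 windows of 2 genes, Sgk1 and Tsc22d3, and in 19.0% of all windows. The windows of these 2 genes are shown because they hold the matches, with the half-sites in capitals.
Sgk1, chr10:21993640-21993939, plus strand: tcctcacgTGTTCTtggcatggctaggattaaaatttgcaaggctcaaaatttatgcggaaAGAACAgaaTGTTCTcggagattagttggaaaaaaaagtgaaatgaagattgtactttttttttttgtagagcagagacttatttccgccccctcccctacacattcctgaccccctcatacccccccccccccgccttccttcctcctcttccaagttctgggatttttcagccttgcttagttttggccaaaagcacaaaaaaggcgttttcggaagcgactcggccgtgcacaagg
Sgk1, chr10:21991973-21992272, plus strand: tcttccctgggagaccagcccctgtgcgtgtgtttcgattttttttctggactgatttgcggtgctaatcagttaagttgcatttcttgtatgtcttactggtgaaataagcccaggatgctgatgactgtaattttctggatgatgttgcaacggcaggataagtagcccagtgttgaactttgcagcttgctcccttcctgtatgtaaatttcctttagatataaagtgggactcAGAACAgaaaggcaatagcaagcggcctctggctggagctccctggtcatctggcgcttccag
Sgk1, chr10:21881934-21882233, plus strand: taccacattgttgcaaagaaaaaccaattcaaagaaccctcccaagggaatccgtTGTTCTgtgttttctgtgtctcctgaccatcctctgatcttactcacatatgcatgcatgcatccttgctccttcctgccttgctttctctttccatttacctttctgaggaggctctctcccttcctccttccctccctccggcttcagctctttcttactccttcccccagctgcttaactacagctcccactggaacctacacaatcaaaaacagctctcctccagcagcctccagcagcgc
Tsc22d3, chrX:140600473-140600772, minus strand: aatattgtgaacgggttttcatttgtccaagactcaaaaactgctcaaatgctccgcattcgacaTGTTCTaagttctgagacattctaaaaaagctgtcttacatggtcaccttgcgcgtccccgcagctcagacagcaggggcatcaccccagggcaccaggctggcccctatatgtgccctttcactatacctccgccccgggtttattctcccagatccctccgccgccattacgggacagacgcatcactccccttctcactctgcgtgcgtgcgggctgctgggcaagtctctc
In the first window the palindrome began 189 bases before the start site, with a further half-site 242 bases before it. The half-sites of the other Sgk1 windows began 13 and 195 bases before their starts, and that of Tsc22d3 185 bases before. The same search covered 40 windows of the other induced targets listed further below. Of those, 0 held the full palindrome, 4 the core and 5 a half-site. Counts per gene do not tell which start was used, and a match in letters is not a measured binding site.

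**Figure D1:**
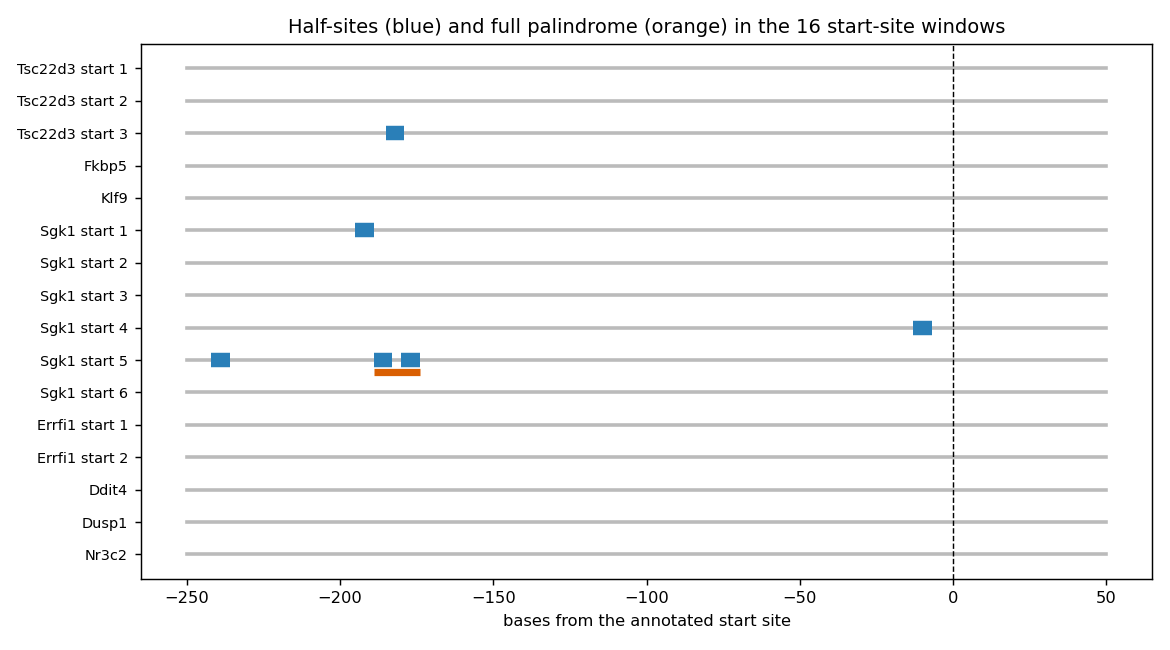
Position of motif matches in the 16 start-site windows of 8 glucocorticoid genes, in bases from the annotated start (dashed line). Blue blocks are half-sites and the orange block is the full palindrome, present only at 1 start of Sgk1 in these windows.

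The receptors were lower in the medium. Nr3c1, the glucocorticoid receptor gene (chromosome 18, 39410545 to 39519421, GRCm38), had 166, 173 and 170 CPM in normal RGCs and 180, 168 and 176 CPM in aging RGCs. In aging RGCs + USCs medium it had 145, 131 and 134 CPM. Normal and aging values overlapped, while the 3 medium values lay below all others. The log2 fold change of Nr3c1 was 0.04 (standard error 0.040) for aging against normal and -0.35 (standard error 0.040) for medium against aging. Nr3c2, the mineralocorticoid receptor gene (chromosome 8, 76899442 to 77245012), had 5.28, 3.54 and 5.13 CPM in normal RGCs and 1.68, 2.68 and 3.09 CPM in aging RGCs. Its level in the medium was 0.514, 0.447 and 0.512 CPM, which rests on 10, 9 and 10 counts. The groups of Nr3c2 did not overlap and stepped down from normal to aging to medium. On the log2 scale Nr3c2 differed by -0.90 (standard error 0.23) for aging against normal, -2.33 (standard error 0.32) for medium against aging and -3.23 (standard error 0.30) for medium against normal. The transcript length implied by count and FPKM was 1.83 kb for Nr3c2 in medium replicate 3 and 3.562 kb in medium replicate 2, against 5.01 to 5.705 kb in the other 7 libraries, so its FPKM in those 2 libraries is not comparable. With limma on log2(FPKM + 1), which also shrinks low genes, the values of Nr3c2 were -0.37, -0.34 and -0.70 in these comparisons, and it was no longer a DEG in the comparisons with medium. Nr3c1 likewise had 4.645 kb in that library and 5.51 to 5.943 kb in the others. An exon of Gm10649 overlaps Nr3c2 on the other strand, and whether counting used strand is not given in the sources used here.

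Tsc22d3, which encodes the anti-inflammatory leucine zipper protein GILZ, had the largest fold change for medium against aging among the 7 targets that passed the low-count filter, and for aging against normal it was close to Ddit4. It lies on chromosome X from 140539528 to 140600659. Its level was 25.7, 25.2 and 24.8 CPM in normal RGCs, 12.8, 11.7 and 11.7 CPM in aging RGCs, and 41.9, 46.1 and 43.0 CPM in aging RGCs + USCs medium. The 3 groups did not overlap, with aging lowest and medium highest. The log2 fold change was -1.07 (standard error 0.076) for aging against normal, 1.86 (standard error 0.072) for medium against aging and 0.79 (standard error 0.064) for medium against normal. Among 12145 genes tested, Tsc22d3 had rank 42 from the highest fold change for medium against aging.

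Klf9, a zinc-finger transcription factor (chromosome 19, 23141226 to 23168134), had the same order of groups. It had 47.1, 50.3 and 50.2 CPM in normal RGCs, 31.5, 33.2 and 32.5 CPM in aging RGCs, and 65.4, 61.5 and 64.6 CPM in the medium. On the log2 scale it differed by -0.60 (standard error 0.055) for aging against normal, 0.98 (standard error 0.054) for medium against aging and 0.38 (standard error 0.051) for medium against normal. No value of one group fell within another.

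Fkbp5 and Sgk1 differed mainly in the medium. Fkbp5, a co-chaperone that lowers the hormone affinity of the receptor (chromosome 17, 28399094 to 28517527), had 135, 146 and 124 CPM in normal and 121, 128 and 131 CPM in aging RGCs. The medium values were 207, 214 and 204 CPM. Normal and aging overlapped and the medium stood above both, with a log2 fold change of 0.71 (standard error 0.045) against aging and -0.09 (standard error 0.046) for aging against normal. Sgk1, a kinase that regulates ion channels and transporters (chromosome 10, 21882184 to 21999903), had 79.3, 83.1 and 76.1 CPM in normal and 77.4, 72.4 and 72.1 CPM in aging RGCs. In the medium it had 140, 138 and 133 CPM. The first 2 groups again overlapped, and the log2 fold change was 0.89 (standard error 0.044) for medium against aging and -0.11 (standard error 0.046) for aging against normal. Sgk1 is also the gene whose start-site window holds the full palindrome.

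Zbtb16, a transcription factor also called PLZF, was close to 0 in every group. Its counts were 0, 0 and 0 in normal RGCs, 1, 1 and 2 in aging RGCs, and 6, 6 and 2 in the medium. Over the 3 libraries, the level from 14 counts in the medium was 5.05 times a floor of 3 counts over the group in normal RGCs. That floor is the upper limit that 0 counts allow by counting error only. The counting error of the 14 counts is left out, so 5.05 is not a lower limit. It lies on chromosome 9 from 48654297 to 48836222 and did not pass the low-count filter, so it has no fold change.

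The remaining targets are also known as stress-response genes. Ddit4, an inhibitor of mTORC1 that answers to hypoxia and energy stress as well (chromosome 10, 59949669 to 59951834), had 117, 129 and 124 CPM in normal RGCs. It had 59.3, 59.4 and 58.9 CPM in aging RGCs and 86.6, 96.4 and 86.0 CPM in the medium. The groups did not overlap, and the medium stayed between the others, with log2 fold changes of -1.06 (standard error 0.049) for aging against normal, 0.60 (standard error 0.050) for medium against aging and -0.46 (standard error 0.046) for medium against normal. Errfi1, an inhibitor of the EGF receptor (chromosome 4, 150853919 to 150868892), had 97.0, 110 and 100 CPM in normal RGCs, 82.4, 86.9 and 82.2 CPM in aging RGCs, and 116, 106 and 103 CPM in the medium. Aging was below both other groups, which overlapped, with log2 fold changes of -0.29 (standard error 0.050) for aging against normal and 0.37 (standard error 0.050) for medium against aging. Dusp1, a phosphatase that turns off MAP kinases (chromosome 17, 26505590 to 26562128), had 20.7, 19.0 and 18.7 CPM in normal RGCs, 15.0, 16.2 and 18.3 CPM in aging RGCs, and 19.7, 21.1 and 19.1 CPM in the medium. Aging was again lowest, though aging replicate 3 came close to the other groups, and the log2 fold changes were -0.24 (standard error 0.084) for aging against normal and 0.27 (standard error 0.085) for medium against aging. An exon of Ergic1 overlaps Dusp1 on the other strand.

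**Figure D2:**
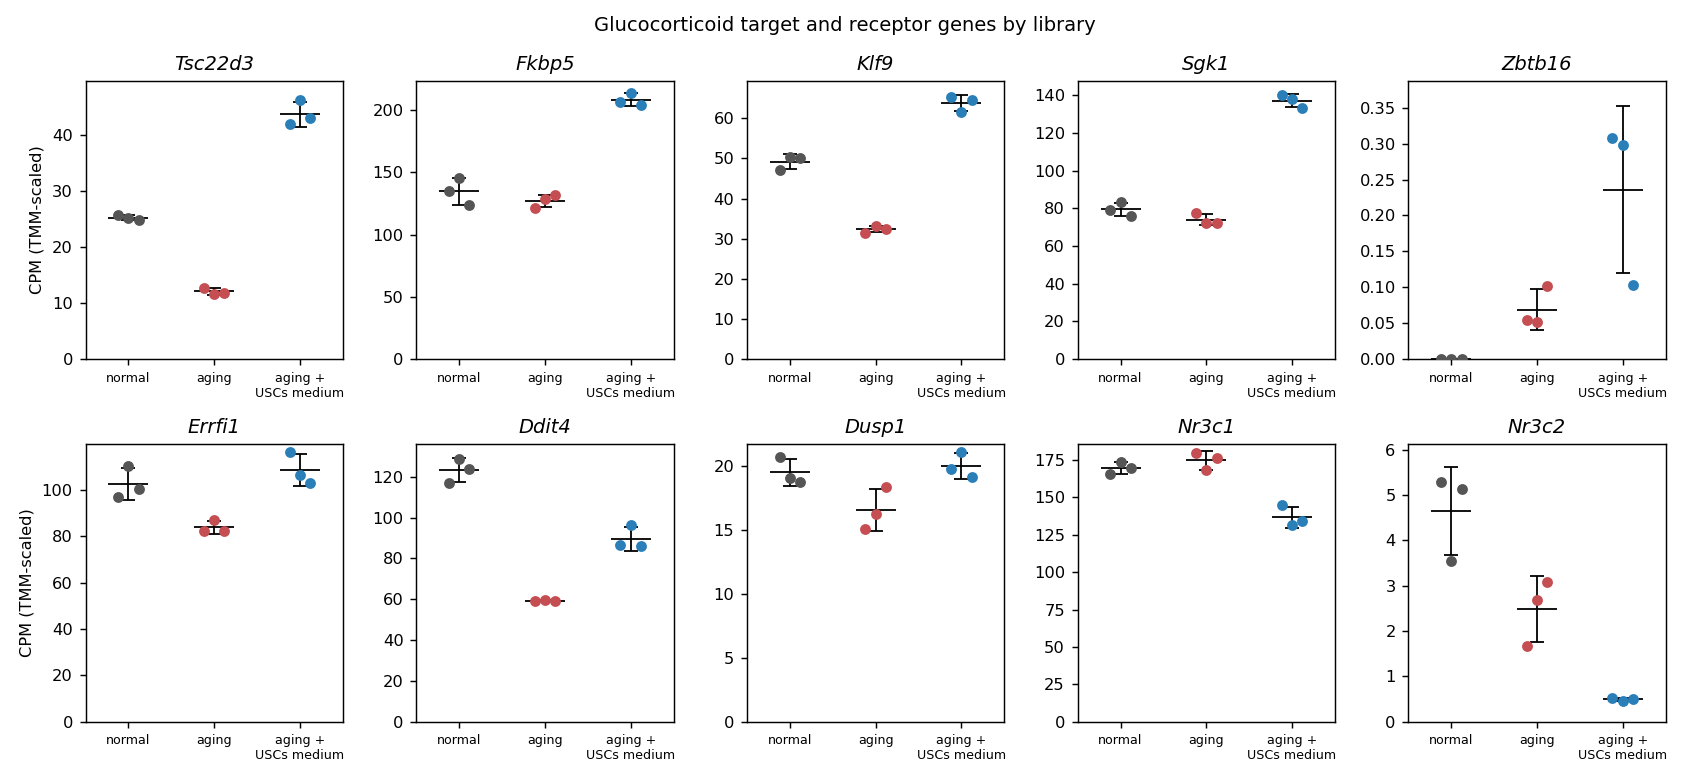
Level of each glucocorticoid gene in CPM (TMM-scaled, axes from 0) in the 9 libraries, with the mean and SD of 3 libraries per group. Tsc22d3, Klf9 and Ddit4 were lowest in aging RGCs, Fkbp5 and Sgk1 stood above the other groups in the medium, and Nr3c2 was at 0.447 to 0.514 CPM there.

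**Figure D3:**
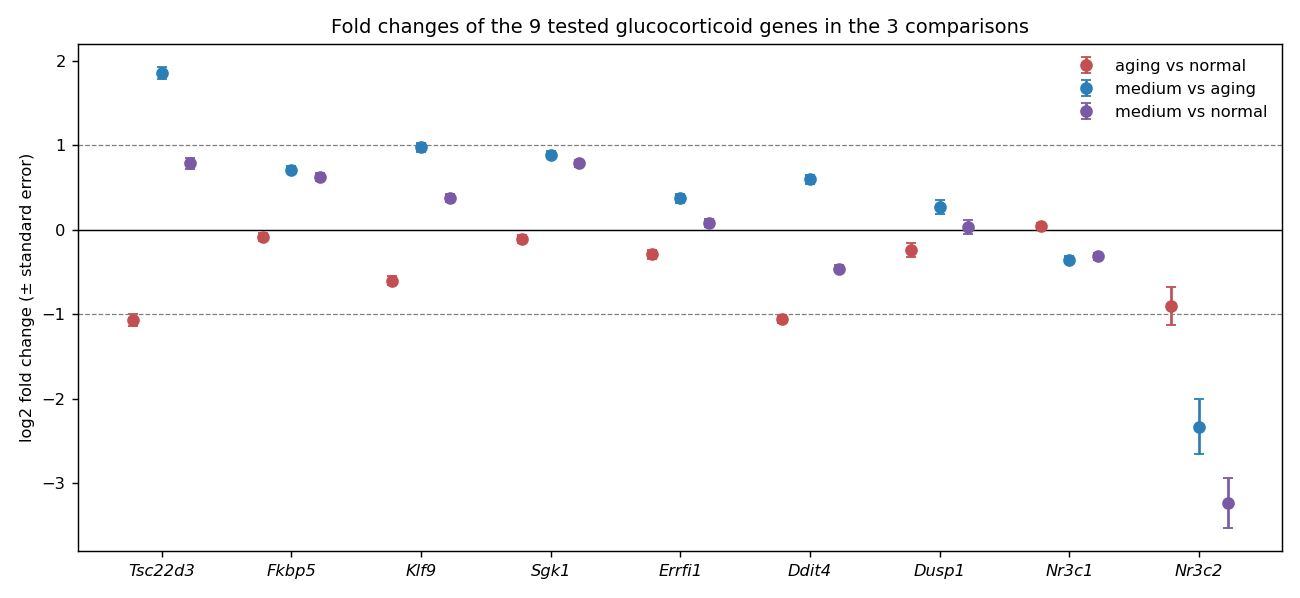
log2 fold changes with standard errors for the 9 genes tested, where medium means aging RGCs + USCs medium, and dashed lines mark a log2 fold change of 1 in either direction. Tsc22d3 reached 1.86 and Nr3c2 -2.33 for medium against aging.

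Per length, the order of the genes changed with the condition. In normal RGCs Ddit4 was highest at 72.2 FPKM, ahead of Fkbp5 at 39.5, Sgk1 at 34.9, Errfi1 at 34.7 and Nr3c1 at 30.1 FPKM. Tsc22d3 followed at 13.4, Klf9 at 11.3, Dusp1 at 10.5 and Nr3c2 at 0.89 FPKM, with Zbtb16 listed at 0. Among neighbours in this order, Fkbp5 and Sgk1, Sgk1 and Errfi1, and Klf9 and Dusp1 overlapped between libraries. In aging RGCs Fkbp5 led at 37.8 FPKM over Ddit4 at 34.2, and Tsc22d3 at 6.26 FPKM stood below Dusp1 at 8.58 and Klf9 at 7.32. In the medium Sgk1 at 58.1 and Fkbp5 at 57.9 FPKM led with overlapping values, and Tsc22d3 had 21.5 FPKM.

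Genes were called DEGs where the adjusted p was under 0.05 and the log2 fold change was 1 or more in either direction. Because the members were selected on these comparisons, their counts are printed beside those of all genes and nothing is read from them. For aging against normal, 0 of the 9 tested members were upregulated DEGs, against 1.09% of all genes tested, and 2, Tsc22d3 and Ddit4, were downregulated, against 1.56%. At an adjusted p under 0.05 alone, 0 were higher and 6 lower, against 23.6% and 23% of all genes. Of the 10, 1 was higher and 6 lower with no overlap between the groups, against 53% of all genes tested in either direction. For medium against aging, Tsc22d3 was an upregulated DEG, against 1.24% of all genes, and Nr3c2 a downregulated one, against 4.21%. By adjusted p alone 7 were higher and 2 lower, against 27.1% and 26%, and 8 were higher and 2 lower without overlap, against 59.8%. For medium against normal, 0 were upregulated DEGs, against 1.47%, and Nr3c2 was downregulated, against 5.24%. By adjusted p alone 4 were higher and 3 lower, against 30.6% and 29.9%, and 5 were higher and 3 lower without overlap, against 63.8%. In each comparison the genes higher without overlap include Zbtb16, which was not tested. Its aging replicate 3 and medium replicate 3 both held 2 counts, and only scaling set them apart, at 0.101 and 0.102 CPM. The median log2 fold change of the 9 was -0.29, 0.60 and 0.08 in the order of these comparisons, and over all genes it was 0.0018, -0.0067 and -0.013.

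Other induced targets were called in both directions. Of a list of 45 genes that glucocorticoids raise in other cells, 38 were tested. The list was made with earlier results of these libraries known, which named Lcn2, Serpina3n and Angptl4, so its counts are not independent of them. For aging against normal, 3 were upregulated and 0 downregulated DEGs, beside 1.09% and 1.56% of all genes tested. For medium against aging, 10 were upregulated and 4 downregulated, beside 1.24% and 4.21% of all genes, and the median log2 fold change was 0.20. Some of the upregulated DEGs were near the floor. Trim63, Hif3a, Crispld2 and Usp2 had means of only 1.05, 1.48, 1.37 and 2.32 CPM in the medium, and lower ones in aging RGCs. For medium against normal, 10 were upregulated and 3 downregulated, beside 1.47% and 5.24%. By adjusted p alone the list had 11 higher and 8 lower, then 18 and 10, then 19 and 11 in these comparisons. The shares of all genes by adjusted p alone were 23.6% higher and 23% lower, then 27.1% and 26%, then 30.6% and 29.9%, so the lower calls of the list were near the background. Many of these genes also respond to cytokines, metals or fatty acids.

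Serpina3n, an acute-phase protease inhibitor of a multigene family, had 0.130, 0.097 and 0.049 CPM in normal RGCs, 0.379, 0.103 and 0.253 CPM in aging RGCs, and 15.7, 18.7 and 18.6 CPM in the medium. The medium libraries stood far above the others, with a log2 fold change of 6.15 against aging (standard error 0.23). However, the other libraries held few counts, and limma on log2(FPKM + 1), which shrinks low genes, gave 3.04. Lcn2, an iron-binding acute-phase protein, had 7.80, 7.22 and 7.55 CPM in normal RGCs, 5.03, 4.33 and 3.65 CPM in aging RGCs, and 74.6, 81.7 and 80.6 CPM in the medium. Against aging Lcn2 rose by 4.19 on the log2 scale (standard error 0.087). No p-value is given for Serpina3n and Lcn2, which earlier results of these libraries had already named. List genes given a p-value here and below were named because they were DEGs with large fold changes. Their p-values restate that choice and are no independent test. The metallothionein Mt2, a metal-binding protein, rose by 1.79 on the log2 scale (standard error 0.059, adjusted p = 8.99e-20 by edgeR), from 327, 345 and 326 CPM to 1139, 1168 and 1140 CPM. Mt1 was already raised in aging RGCs, at 248, 266 and 260 CPM against 97.8, 111 and 112 CPM in normal RGCs, and it reached 416, 419 and 430 CPM in the medium. Cebpd, a transcription factor of the acute phase, rose by 1.39 against aging (standard error 0.093, adjusted p = 5.93e-13 by edgeR), but its counts were not whole in 8 libraries and an exon of Spidr overlaps it on the other strand. Exons of Gm45774 overlap Mt2 on the other strand.

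Angptl4, a lipase inhibitor that fatty acid receptors also induce, went the other way from these genes in the medium. It had 28.9, 51.6 and 35.5 CPM in normal RGCs, 119, 123 and 117 CPM in aging RGCs, and 46.2, 49.0 and 44.0 CPM in the medium. The aging libraries were above both other groups. The log2 fold change was 1.64 for aging against normal (standard error 0.099) and -1.37 for medium against aging (standard error 0.098), without a p-value because Angptl4 had also been named earlier. The other downregulated DEGs of the induced list in the medium, named after their values were seen, were Fbxo32 and Mertk, with log2 fold changes of -1.38 and -1.32, and Atp1b1 with -1.22. Per1, a clock gene, and Zfp36, an mRNA-destabilizing protein, were among the upregulated ones at 1.03 and 1.16, also named after their values were seen.

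**Figure D4:**
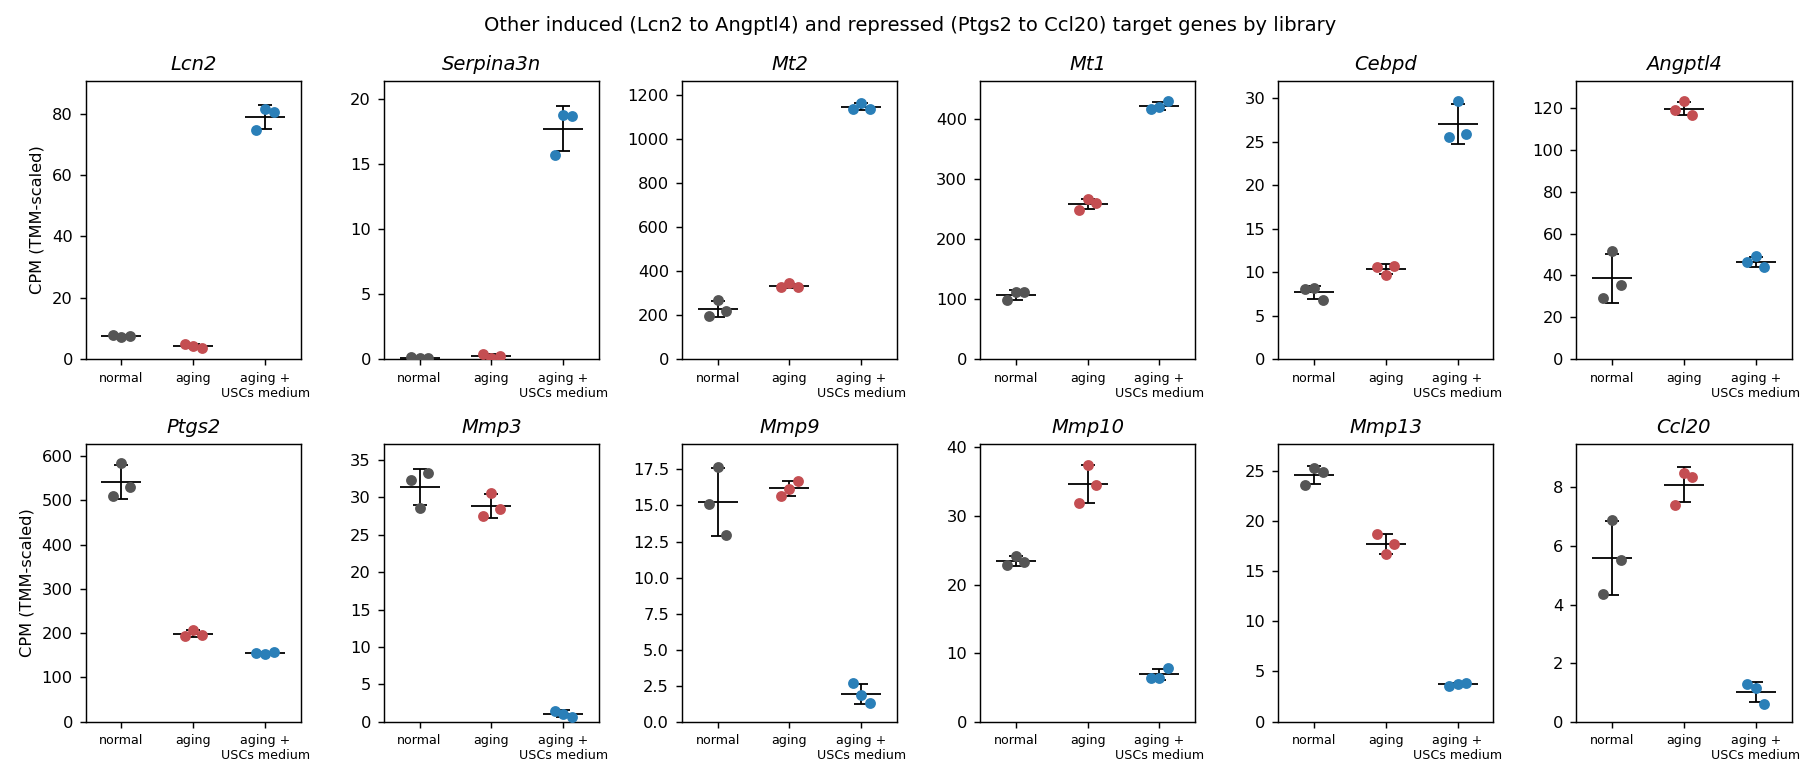
Levels in CPM (TMM-scaled, axes from 0) of 6 induced targets (top) and 6 repressed targets (bottom) named in the text, by library, with the mean and SD of 3 libraries per group. Lcn2 and Serpina3n were high only in the 3 medium libraries, and Mmp3, Mmp9, Mmp10, Mmp13 and Ccl20 were low only there.

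A list of 26 genes that glucocorticoids are known to lower was made up mainly of cytokines, chemokines and matrix proteases, with a few hormone and other genes such as Pomc, Crh, Bglap and Plat, and 22 were tested. Aging against normal gave 0 upregulated and 1 downregulated DEG, Ptgs2, beside 1.09% and 1.56% of all genes. Medium against aging gave 1 upregulated and 8 downregulated DEGs, beside 1.24% and 4.21%, with a median log2 fold change of -0.71. Medium against normal gave 1 and 10, beside 1.47% and 5.24%, with a median of -0.72. By adjusted p alone, 5 were higher and 5 lower, beside 23.6% and 23%, then 2 and 14, beside 27.1% and 26%, then 2 and 14, beside 30.6% and 29.9%. Mmp3, Mmp9 and Ccl20 were known from earlier results to be lower in the medium when the list was made, so the counts are not independent of them.

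Mmp3, a secreted matrix-degrading protease, had 32.3, 28.6 and 33.3 CPM in normal RGCs, 27.5, 30.6 and 28.4 CPM in aging RGCs, and 1.49, 1.09 and 0.615 CPM in the medium. The medium values were all far below the rest, and against aging Mmp3 fell by 4.75 on the log2 scale (standard error 0.14). Mmp9, a gelatinase, fell by 3.07 (standard error 0.16), from 15.7, 16.2 and 16.7 CPM to 2.67, 1.84 and 1.28 CPM. Mmp10, a stromelysin, fell by 2.33 (standard error 0.092, adjusted p = 5.55e-18 by edgeR), and Ccl20, a chemokine for lymphocytes and dendritic cells, by 2.99 (standard error 0.22). No p-value is given for Mmp3, Mmp9 and Ccl20, since their lower levels were already known from these libraries. Mmp10, Mmp13 and Ptgs2 were named for being DEGs, so their p-values restate that choice. Mmp13, a collagenase, fell by 2.71 against normal RGCs (standard error 0.10, adjusted p = 1.10e-18 by edgeR). With limma on log2(FPKM + 1), the values for medium against aging were -3.47 for Mmp3, -1.97 for Mmp9 and -2.32 for Ccl20. Ptgs2, the inducible enzyme of prostaglandin synthesis, behaved differently, since it was already lower in aging RGCs. It had 509, 585 and 530 CPM in normal RGCs, 195, 208 and 195 CPM in aging RGCs, and 154, 154 and 158 CPM in the medium. In aging against normal RGCs it fell by 1.44 on the log2 scale (adjusted p = 4.48e-21 by edgeR, standard error 0.041). Csf3, a granulocyte growth factor, was the upregulated DEG of this list in the medium, at 1.14 against aging and 1.71 against normal, and it was named after its values were seen.

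**Figure D5:**
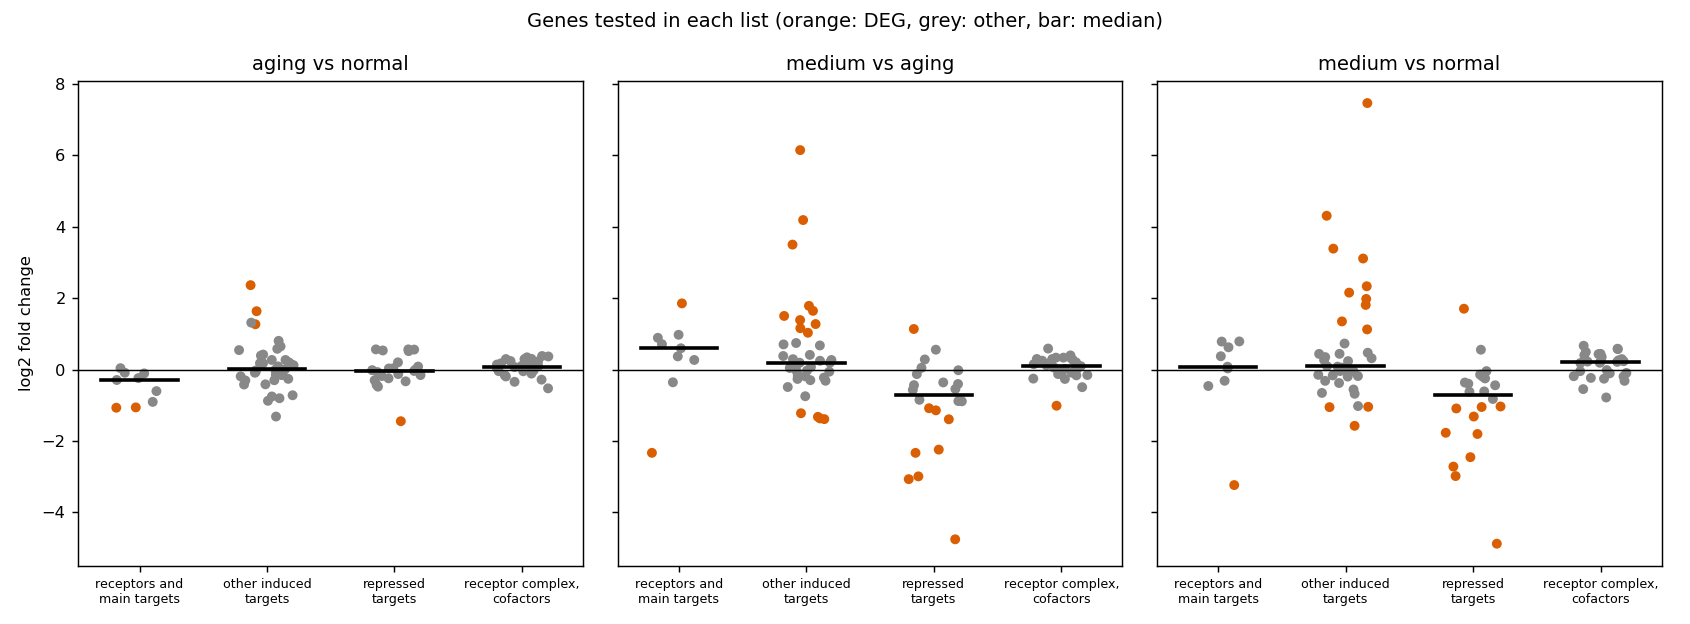
log2 fold changes of the tested genes of 4 lists in the 3 comparisons, where medium means aging RGCs + USCs medium, orange points are DEGs and bars are medians. The repressed targets, of which Mmp3, Mmp9 and Ccl20 were known to be lower when the list was made, had medians of -0.71 and -0.72 in the comparisons with medium.

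Genes of the receptor's chaperone complex changed by less than the fold threshold, with 1 exception. Of 28 genes for Hsp90, its co-chaperones and nuclear cofactors, 27 were tested, and 0 were DEGs for aging against normal or for medium against normal by edgeR or DESeq2, beside 2.65% and 6.72% of all genes as DEGs in edgeR. At an unadjusted p under 0.05, 21 and 25 of them passed in edgeR in those comparisons, beside 52.6% and 64% of all genes. By adjusted p alone, 12 were higher and 6 lower, then 13 and 7 for medium against aging, and 16 and 9 for medium against normal. All genes gave 23.6% and 23%, 27.1% and 26%, and 30.6% and 29.9%, so the lower calls were near the background. Hsp90aa1, the inducible Hsp90, had 979, 967 and 935 CPM in aging RGCs and 1225, 1202 and 1214 CPM in the medium, a log2 fold change of 0.34 with no overlap. Hsp90ab1, the constitutive form, had a log2 fold change of 0.15, and Fkbp4, a co-chaperone that favours hormone binding, rose from 125, 128 and 125 CPM to 188, 191 and 190 CPM, or by 0.59. The single DEG, downregulated for medium against aging, was Hspa1b, a stress-induced Hsp70 with a near-identical copy that can share its reads, at -1.01 (standard error 0.12, adjusted p = 3.27e-08 by edgeR). It was not a DEG without aging replicate 2, medium replicate 1 or medium replicate 3.

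Most genes that make, convert or carry steroids had too few counts to test. Of 16 such genes, 5 were tested, and 0 were DEGs in any comparison by edgeR or DESeq2, beside 2.65%, 5.44% and 6.72% of all genes in edgeR. At an unadjusted p under 0.05, 3, 3 and 4 of the 5 passed in edgeR, beside 52.6%, 58% and 64% of all genes. Hsd11b1, which regenerates active glucocorticoid, had at most 3 counts in a library, and Hsd11b2, which inactivates it, at most 6. The adrenal synthesis enzymes Cyp11b1, Cyp17a1 and Cyp21a1 had 0 counts in all 9 libraries.

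Gene Ontology terms in the table give a wider view. Only 2 of the 10 genes carried a term for response to glucocorticoid. Another 98 genes carried such a term, and 56 of these others were tested. They gave 1 upregulated and 2 downregulated DEGs for aging against normal, 5 and 5 for medium against aging, and 3 and 5 for medium against normal. The shares of all genes were 1.09% and 1.56%, 1.24% and 4.21%, and 1.47% and 5.24%. By adjusted p alone, 18 were higher and 22 lower for medium against aging, beside 27.1% and 26% of all genes, with a median log2 fold change of -0.017. This set was taken after values were seen and mixes induced with repressed genes. Errfi1, Ddit4 and Nr3c1 shared the term for cellular response to dexamethasone, which 41 genes of the table carried.

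The genes whose levels most resembled a member over the 9 libraries were found among 9254 genes by Pearson correlation of log2 CPM. For Tsc22d3 these were Zfp36, Pim3 and Krtcap2, with r of 0.996, 0.996 and 0.995. For Fkbp5 they were Plcxd2, Tfg and Psmd8, with r of 0.994, 0.99 and 0.989, and for Nr3c1 they were Gypc, Snx30 and Six4, with r of 0.979, 0.979 and 0.978. These are descriptions over libraries that share 3 groups, and 154, 236 and 64 genes had r over 0.95 with the 3 members. Exons of Gm44710 overlap Zfp36, and exons of Trim46 overlap Krtcap2, on the other strand. Exons of Gm12543 overlap Snx30 on the same strand.

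Without Cd68, the summed macrophage markers were lower in aging than in normal RGCs, and 1 medium library stood apart. The summed FPKM of 8 macrophage markers was 36.7, 39.9 and 34.5 in normal RGCs, 34.7, 37.3 and 34.4 in aging RGCs, and 24.1, 22.8 and 30.7 in the medium, with Cd68 the most abundant. Leaving out Cd68, it was 6.37, 4.02 and 3.74, then 1.33, 1.82 and 0.81, then 0.48, 0.56 and 3.49. Of 6 markers tested, 0 were upregulated and 4 downregulated DEGs for aging against normal, beside 1.09% and 1.56% of all genes. Medium against aging gave 2 and 0, beside 1.24% and 4.21%, and medium against normal 0 and 2, beside 1.47% and 5.24%. Adgre1, a macrophage surface receptor, had 57, 19 and 43 counts in normal RGCs, 2, 0 and 1 in aging RGCs, and 2, 2 and 32 in the medium. C1qb, a complement subunit made by macrophages, had 21, 13 and 11 counts, then 0 in all aging libraries, and 0, 0 and 15 in the medium. Medium replicate 3 thus stood apart, and its part in the results was not tested beyond leaving it out. Without it, the log2 fold changes of the 9 members for medium against aging kept their signs.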

How the data were processed

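RNA-seq values of 9 libraries, 3 per group by their labels, were analysed. The authors deposited expected counts, which estimate reads per gene without normalization, and FPKM values, scaled by transcript length and depth. The submitters' processing notes name the build mm10. No source used here gives the aligner or the counting program. Coordinates came from GENCODE M21 on GRCm38, in which 22267 of 22322 identifiers matched, and promoter windows from RefSeq.

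Expected counts were rounded, since 6.92% to 7.38% of values were not whole. edgeR 4.0.16 in R 4.3.3 was used with filterByExpr, which kept 12145 genes, TMM factors, and 1 mean per group over 9 libraries with 6 residual degrees of freedom. The biological coefficient of variation was 3.78%. The quasi-likelihood test was applied to each contrast, with Benjamini-Hochberg adjustment over all genes tested. The mean squared deviation between replicates was 2.21 to 4.9 times the variance from counting noise, and each replicate was counted as a sample.

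Members and lists were chosen with earlier results of these data known. List genes were then named by their calls in these same libraries, so their p-values restate that choice. Named genes were the members and, from each of 4 lists and in each comparison, up to 4 DEGs of the greatest fold change whose average log2 CPM was 1 or more and whose groups did not overlap, plus Hsp90aa1, Hsp90ab1, Fkbp4, Hsd11b1 and Hsd11b2. Alternatives were DESeq2 1.42.0, limma 3.58.1 on log2(FPKM + 1) and log2(FPKM + 0.1), no TMM factors, upper-quartile factors, other low-count filters, other fold thresholds, a replicate block, a fit of the compared groups alone, and each library left out in turn.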

Additional observations from a re-analysis of the deposited data

How the results depend on the processing

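The fold threshold moved the counts most. Without it, 6, 9 and 7 of the glucocorticoid genes passed for aging against normal, medium against aging and medium against normal, beside 46.5%, 53.1% and 60.5% of all genes tested. With a 1.5-fold threshold 4, 6 and 4 passed, beside 7.91%, 11.8% and 15.6%. In the same order, the counts without a threshold were 19, 28 and 30 for induced targets, 18, 20 and 25 for the receptor complex, and 3, 3 and 4 for steroid supply. Repressed targets had 10 and 16 in the first 2 comparisons. With a 1.5-fold threshold, induced targets had 7 for aging against normal, the receptor complex 2 and 3 in the comparisons with medium, and steroid supply 1, 2 and 1. limma on log2(FPKM + 1), whose pseudocount shrinks low genes, gave 1, 1 and 0 of the glucocorticoid genes. For aging against normal, Tsc22d3 lost its call at -0.98, just inside the fold threshold, against -1.07. The call of Nr3c2 was lost in the comparisons with medium, with Nr3c2 at -0.37, -0.34 and -0.70 in the order of comparisons. The values were lower in size for Serpina3n at 3.04 and 3.13, Mmp3 at -3.47 and -3.60, Mmp9 at -1.97 and -1.91 and Ccl20 at -2.32 and -1.86 against aging and normal RGCs. It also gave 9 and 7 induced targets in the comparisons with medium, and 0 of the receptor complex for medium against aging. Without a low-count filter, medium against normal gave 2 glucocorticoid genes, Nr3c2 and Zbtb16, and 1 gene of steroid supply, beside 210 upregulated and 741 downregulated among all genes.

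With each library left out in turn, induced targets for aging against normal ranged from 3 to 5, with 5 without aging replicate 1 or aging replicate 2. All genes then gave 124 upregulated and 217 downregulated DEGs without aging replicate 1, and 139 and 190 without aging replicate 2. The receptor complex for medium against aging ranged from 0 to 1, and steroid supply from 0 to 1 in each comparison. With all libraries, 2.65%, 5.44% and 6.72% of all genes were DEGs in the order of comparisons. The replicate numbers did not pair the libraries, with correlations of -0.037 to 0.048. With a replicate block the glucocorticoid genes gave 2, 2 and 1 DEGs, and all genes gave 129 upregulated and 189 downregulated, 150 and 507, and 180 and 629.

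Over all genes, a 1.5-fold threshold gave 376 and 585, 422 and 1013, and 555 and 1334 DEGs. limma on log2(FPKM + 1) gave 19 and 47, 53 and 76, and 62 and 167, and a filter of 1 CPM in 3 libraries left 88 upregulated for aging against normal. Without TMM factors the median of all genes for medium against normal was -0.113, against -0.013 with them. Errfi1 and Dusp1, which had log2 fold changes of 0.08 and 0.04 there, turned negative without TMM factors and with limma on FPKM, reaching -0.018 and -0.0805. Dusp1 also turned negative with upper-quartile factors and without medium replicate 2, and neither gene was a DEG. The adjusted p of Dusp1 did not stay under 0.05 in the other comparisons. At its largest over the settings run, it was 0.127 for aging against normal and 0.0667 for medium against aging. Hsp90ab1 lost its adjusted p under 0.05 under 6 alternatives for aging against normal and 1 for medium against aging. The fold change of Nr3c2 rests on 9 or 10 counts per medium library, and Zbtb16, with 14 counts in the medium, did not pass the low-count filter.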
